A study of Mus musculus with 6 samples.

Results

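The genes described here are 10 mouse Fc receptor and Fc receptor-like genes, listed by name: Fcgr1, Fcgr3, Fcer1g, Fcgr2b, Fcer2a, Fcgrt, Fcrl1, Fcrl5, Fcrla and Fcrlb. They were measured on 6 one-colour Affymetrix arrays, 3 of Etv5 knockout (KO) cells and 3 of Etv5 wild-type (WT) cells. In both genotypes the cells were B cell precursors from 129SvEv mice transformed with BCR-ABL1, the oncogenic fusion kinase that defines Ph+ acute lymphoblastic leukemia, and no other treatment, time or age is given in the labels. Etv5 is a transcription factor of the ETS family, and the single comparison of this design is KO against WT. Of the 10 genes, 9 were named by a probe set of their own, 1 each, among 19938 genes and 35556 probe sets in all. Fcgrt, which encodes the neonatal Fc receptor, was not analysed here because no probe set in the annotation used is named for it. The labels do not say whether samples of equal genotype had different mice or cultures as their source, which exons the KO allele lacks or how the cells were transformed. What the p-values below weigh a change against is thus no more than the variation among these arrays, possibly technical.

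Fc receptors bind the constant part of antibodies and tie antibody to the behaviour of the cell that carries them. The activating receptors Fcgr1 and Fcgr3 signal through the common gamma chain encoded by Fcer1g, whose tyrosine motif recruits the kinase Syk, and they are best known from macrophages, neutrophils, mast cells and natural killer cells. B cells instead rely on Fcgr2b, an inhibitory IgG receptor that dampens B cell receptor signals by recruiting the lipid phosphatase encoded by Inpp5d. Fcer2a encodes CD23, the low-affinity IgE receptor of mature B cells. The Fc receptor-like genes are relatives: Fcrl1 and Fcrl5 encode surface proteins of B lineage cells, while Fcrla and Fcrlb encode intracellular proteins of B cells.

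Values are log2 signals, so a difference of 1 is a doubling. A change is given as KO minus WT with its moderated standard error (SE) from limma, and a gene is said to rise or fall where its Benjamini-Hochberg adjusted p over all probe sets was under 0.05. Array medians lay between 7.79 and 7.84. Of 11 measured markers of B cell precursors (Cd79a, Cd79b, Pax5, Ebf1, Vpreb1, Vpreb2, Igll1, Il7r, Rag1, Rag2 and Dntt), none was below the median probe set and 6 were in the brightest 10%. The pair of probe sets annotated to the targeted gene went in opposite directions. One gave 8.97, 8.91 and 8.92 in KO samples 1 to 3, against 9.30, 9.52 and 9.27 in WT samples 1 to 3. Its change was -0.43 (adjusted p = 0.0467), no longer past the threshold once any 1 of the samples was removed (adjusted p 0.0712 to 0.180). This probe set still passed in 5 of its 14 alternative fits. The other gave 11.67, 11.88 and 11.73 in KO, against 11.48, 11.52 and 11.46 in WT (change 0.28, adjusted p = 0.130). It passed as higher in KO in 2 of its 15 alternative fits, over single-gene probe sets (adjusted p = 0.0486) and with a robust variance trend (adjusted p = 0.0437). The sources used here do not place the probes relative to the deletion, and whether both probe sets read Etv5 transcripts was not tested.

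The promoters of 4 of these genes are shown first, because Etv5 belongs to a family that binds the DNA word GGAA, because 3 of the genes changed and because Fcrlb lies beside Fcrla on the chromosome and did not pass the test. They are from RefSeq, build GRCm38.p6 of C57BL/6J mice rather than 129SvEv, and run 5′ to 3′ on the strand of the gene, from 250 bases before a RefSeq transcript start to 50 after it. Capitals mark each GGAA, or TTCC where the word is on the other strand. The starts used for Fcrla, Fcrlb and Fcrl1 lie 4633, 888 and 34 bases inside RefSeq's outer limit of the gene, which reaches further upstream.
Fcrla, chr1:170927534-170927833, minus strand: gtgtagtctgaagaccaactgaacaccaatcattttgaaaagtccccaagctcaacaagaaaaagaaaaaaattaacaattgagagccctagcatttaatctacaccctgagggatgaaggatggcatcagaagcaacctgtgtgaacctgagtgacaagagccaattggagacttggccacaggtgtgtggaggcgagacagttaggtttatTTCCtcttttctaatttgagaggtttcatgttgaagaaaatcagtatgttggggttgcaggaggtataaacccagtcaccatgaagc
Fcrlb, chr1:170912892-170913191, minus strand: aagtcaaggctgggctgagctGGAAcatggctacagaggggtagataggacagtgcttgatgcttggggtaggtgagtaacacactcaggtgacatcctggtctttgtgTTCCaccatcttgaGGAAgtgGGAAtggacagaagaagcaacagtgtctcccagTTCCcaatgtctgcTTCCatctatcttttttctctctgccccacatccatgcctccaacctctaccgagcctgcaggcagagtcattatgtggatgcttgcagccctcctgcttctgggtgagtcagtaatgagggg
Fcgr2b, chr1:170976022-170976321, minus strand: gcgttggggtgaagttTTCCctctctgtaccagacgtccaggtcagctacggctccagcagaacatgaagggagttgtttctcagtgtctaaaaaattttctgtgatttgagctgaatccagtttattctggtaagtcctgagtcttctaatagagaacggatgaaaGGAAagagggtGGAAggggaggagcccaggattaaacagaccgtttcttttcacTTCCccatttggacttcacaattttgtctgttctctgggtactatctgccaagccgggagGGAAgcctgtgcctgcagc
Fcrl1, chr3:87376137-87376436, plus strand: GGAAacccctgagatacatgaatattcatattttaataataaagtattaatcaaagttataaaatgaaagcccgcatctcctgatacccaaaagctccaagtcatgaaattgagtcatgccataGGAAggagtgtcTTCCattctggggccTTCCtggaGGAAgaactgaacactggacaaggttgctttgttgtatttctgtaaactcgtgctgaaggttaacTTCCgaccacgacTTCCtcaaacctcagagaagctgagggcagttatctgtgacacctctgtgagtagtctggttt

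The Fcrla promoter held 1 match to GGAA, on the opposite strand 37 bases before the start. The Fcgr2b promoter held 5 matches, the Fcrlb promoter 6 and the Fcrl1 promoter 7. Over the 32851 promoters of the RefSeq table searched, 96.0% held at least 1 match on either strand and the median was 3. The search left out promoters of other lengths and those of a single chromosome that holds none of these genes. The longer word GAGGAAGT, which overlaps GGAA, occurred once in the Fcrlb promoter, 129 bases before the start, and once in the Fcrl1 promoter on the opposite strand, 15 bases before the start. It was found in 3.20% of the promoters searched. The word CCGGAAGT, also overlapping GGAA, was in none of these 4 windows and in 3.89% of the promoters searched. These are matches of letters in short windows and show no binding.

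Among the 9 measured genes, Fcrla and Fcgr2b rose in Etv5 KO cells, Fcrl1 fell, and 6 did not pass the test. Fcrla had the largest change, 2.35-fold higher in KO. The 2 genes higher in KO stand beside 2.42% of all 19938 genes called higher, the 1 lower gene beside 2.01% called lower, and the 3 of either direction (33.3% of the 9) beside 4.43%. At an unadjusted limma p under 0.05 there were 6 of the 9, beside 2681 of all genes. The 3 KO values lay wholly above or below the 3 WT values in 6 of the 9 genes, 4 higher and 2 lower, where 20.5% of all genes had groups that did not overlap. The median change was 0.06 over the 9 genes, beside -0.0039 over all genes, and the median size of change was 0.20, beside 0.061. The genes were listed with earlier results of these data known, so these counts describe the list and are no independent evidence about it.

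**Figure D1:**
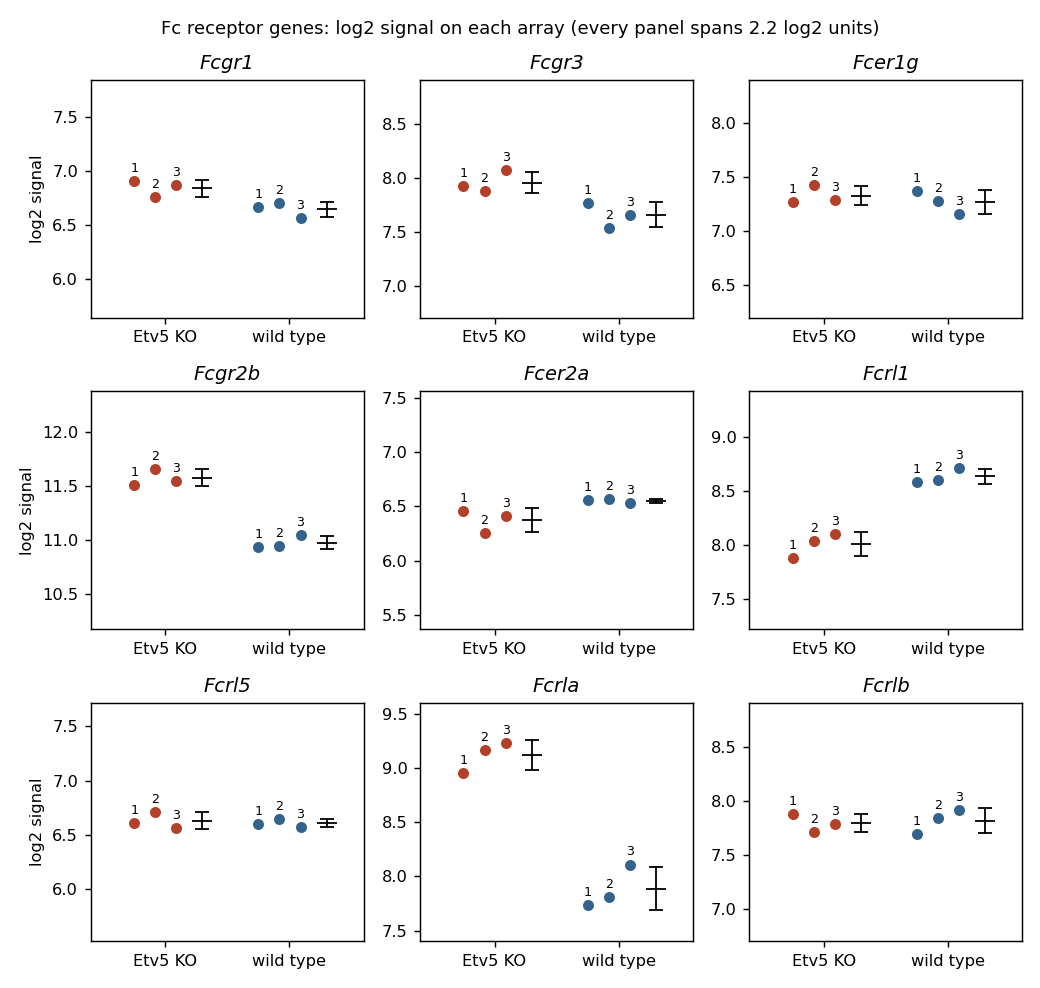
Log2 signal of the 9 measured Fc receptor and Fc receptor-like genes, 1 panel per gene, with Etv5 KO samples in red on the left and WT samples in blue on the right. Points are single arrays labelled with their sample number, and the bar beside them is the mean with its SD (n = 3). The groups are far apart for Fcrla, Fcgr2b and Fcrl1 and overlap for Fcer1g, Fcrl5 and Fcrlb.

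Fcgr2b, the inhibitory IgG receptor and the Fc receptor best known from B cells, rose in KO cells. Its signal was 11.51, 11.66 and 11.55 in KO samples 1 to 3, against 10.94, 10.95 and 11.05 in WT samples 1 to 3. The lowest KO sample was 0.47 log2 units above the highest WT sample. The means were 11.58 ± 0.077 in KO and 10.98 ± 0.059 in WT (SD, n = 3 each), a change of 0.60 ± 0.063 (SE, 95% interval 0.45 to 0.75, adjusted p = 0.00553), or 1.52-fold. Among all probe sets, 87.6% were dimmer than that of Fcgr2b in KO and 82.5% in WT.

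The activating receptors and their shared chain did not pass. Fcgr3, the low-affinity activating IgG receptor, gave 7.93, 7.88 and 8.07 in KO, against 7.77, 7.54 and 7.66 in WT. The groups did not overlap, but the change of 0.30 ± 0.083 (95% interval 0.10 to 0.50) had an adjusted p of 0.186. Mouse Fcgr2b and Fcgr3 have nearly identical extracellular parts, and the sources used here do not give the probe positions. How much of the Fcgr3 signal comes from Fcgr2b transcripts was not tested.

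Fcgr1, the high-affinity IgG receptor, gave 6.91, 6.76 and 6.87 in KO, against 6.67, 6.71 and 6.57 in WT. The closest samples of the genotypes were 0.048 apart, and the change of 0.20 ± 0.066 (95% interval 0.04 to 0.36) did not pass (adjusted p = 0.308). Fcer1g, the gamma chain that both receptors need, gave 7.27, 7.43 and 7.29 in KO, against 7.37, 7.28 and 7.16 in WT. These groups overlapped, and the interval of the difference, -0.13 to 0.25 (adjusted p = 0.932), leaves room for a change of at most 0.25 log2 units at this confidence. Since Fcer1g was dimmer than most probe sets in both genotypes, and the table gives no detection calls, it was not shown to be above background.

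These 3 genes are typical of myeloid cells, so the fixed list of myeloid markers is given beside them. Of its 27 measured genes, 3 rose, none fell and 24 did not pass. The 3 were Cybb, a subunit of the phagocyte NADPH oxidase that B cells also express (2.44 ± 0.063, adjusted p = 5.34e-05), the surface antigen gene Ly6g (1.14 ± 0.16, adjusted p = 0.0156) and the integrin gene Itgam (0.60 ± 0.092, adjusted p = 0.0235). The summed linear signal of the list was 8104 to 8801 in KO samples and 5533 to 5610 in WT samples. Without Cybb, a choice made after seeing its value, the sum was 4961 to 5474 in KO and 4932 to 5023 in WT. The KO and WT values did not overlap in 8 of the 27 genes, 7 higher and 1 lower in KO, where 20.5% of all genes did not overlap. Among the higher ones that did not pass were Mrc1 (0.31, adjusted p = 0.0795), Cd68 (0.34, adjusted p = 0.278) and Cd33 (0.19, adjusted p = 0.564). The 1 lower gene was Lyz2, which did not pass either (-0.32, adjusted p = 0.473). Mpo, Csf1r and Adgre1, which define neutrophil granules and macrophages, stayed between 5.81 and 7.10 on all 6 arrays, differed by -0.02, -0.11 and 0.08 and did not pass. The choice to name Mrc1, Cd68, Cd33, Lyz2, Mpo, Csf1r and Adgre1 followed a look at their values. Of the 27 genes, 22 were below the median probe set. RMA gives no value of 0. The part of the list in the values of Fcgr3 and Fcgr1 was not tested, and in bulk samples fewer cells of a type and less RNA per cell cannot be told apart. Leaving out 1 sample, Itgam lost its call in 4 of 6 fits and Ly6g in 3 (highest adjusted p 0.112 and 0.0694).

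Fcer2a, the IgE receptor CD23 of mature B cells, was among the dim genes. It gave 6.46, 6.25 and 6.41 in KO, against 6.56, 6.57 and 6.53 in WT. All KO values were below all WT values, by 0.074 at the nearest, and the change of -0.18 ± 0.068 (95% interval -0.34 to -0.02) did not pass (adjusted p = 0.389). Only 22.1% of probe sets in KO and 24.97% in WT were dimmer, so neither genotype was shown to express it. Cr2, the complement receptor that binds CD23 in humans, was named after its value was seen and differed by 0.12 (95% interval -0.09 to 0.33, adjusted p = 0.789).

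Among the Fc receptor-like genes, Fcrl1 fell. Fcrl1 encodes a B cell surface protein known to enhance B cell receptor signals. Its signal was 7.88, 8.03 and 8.10 in KO, against 8.58, 8.60 and 8.71 in WT. The highest KO sample was 0.48 below the lowest WT sample. The means were 8.004 ± 0.11 in KO and 8.63 ± 0.067 in WT (SD, n = 3 each), a change of -0.63 ± 0.075 (SE, 95% interval -0.81 to -0.45, adjusted p = 0.00901), so the signal was 1.54-fold higher in WT.

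Fcrl5, which lies next to Fcrl1 among the measured genes of chromosome 3 and encodes an inhibitory receptor-like protein of innate-like B cells, gave 6.61, 6.71 and 6.56 in KO, against 6.60, 6.64 and 6.57 in WT. The groups overlapped, with a 95% interval of -0.12 to 0.17 for the difference (adjusted p = 0.979). Its probe set was dim, with 26.2% of probe sets dimmer in KO and 25.9% in WT. The change of Fcrl1 minus that of Fcrl5 was -0.65.

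Fcrla rose most. Fcrla encodes an intracellular protein of B cells that binds immunoglobulin in the endoplasmic reticulum. Its signal was 8.96, 9.17 and 9.23 in KO, against 7.74, 7.81 and 8.11 in WT. Every KO sample was above every WT sample, and the 9 differences between a KO and a WT array ran from 0.85 to 1.50. The means were 9.12 ± 0.14 in KO and 7.89 ± 0.20 in WT (SD, n = 3 each), a change of 1.23 ± 0.12 (SE, 95% interval 0.94 to 1.53, adjusted p = 0.00433).

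Fcrlb, its neighbour and closest relative, did not pass. It gave 7.88, 7.71 and 7.79 in KO, against 7.69, 7.84 and 7.92 in WT. The groups overlapped, and the 95% interval of the difference, -0.22 to 0.17 (adjusted p = 0.983), lay far below the change of Fcrla. The log2 ratio of Fcrla to Fcrlb on the same array was 1.08, 1.45 and 1.44 in KO, against 0.05, -0.03 and 0.19 in WT, so their changes differed by 1.26. Such a ratio is read between arrays only, since signals of different probe sets are not levels on one scale. The change of Fcrla also exceeded that of Fcgr2b by 0.63, and that of Fcgr2b exceeded that of Fcgr3 by 0.30. In these 3 pairs and in that of Fcrl1 with Fcrl5, chosen after their values were seen, the ratios did not overlap between genotypes, and the two-sided exact permutation p was 0.10 for each of the 4 pairs, also after Benjamini-Hochberg adjustment. This is the smallest p that 3 samples against 3 can give.

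**Figure D2:**
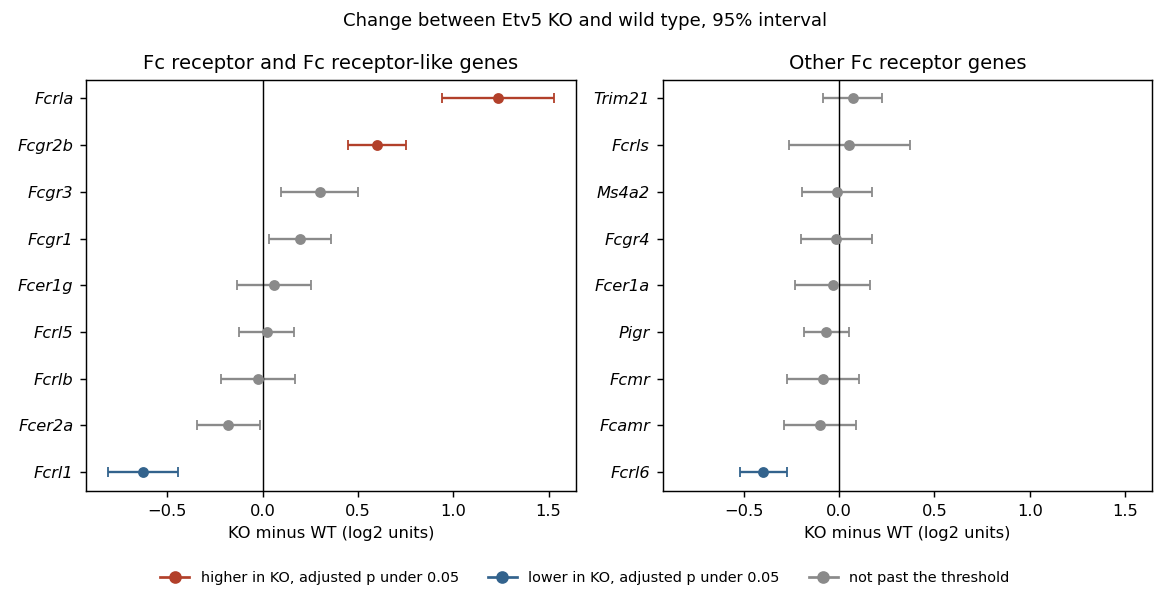
KO minus WT in log2 units (horizontal axis) for the 9 measured genes (left) and 9 other Fc receptor genes (right), with 95% intervals from limma. Red marks genes higher in KO, blue genes lower in KO and grey genes past no threshold. Fcrla (1.23) and Fcgr2b (0.60) stand right of 0, Fcrl1 (-0.63) and Fcrl6 (-0.40) left of it.

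Within a genotype, the 3 changed genes shared their lowest KO and highest WT sample. KO sample 1 was the lowest KO sample and WT sample 3 the highest WT sample for Fcrla, Fcgr2b and Fcrl1, although Fcrl1 ran the other way between the genotypes. Plcg1 and Bank1, described below, had the same lowest KO and highest WT sample, so this order was not particular to the Fc receptor genes. Its share over all genes was not computed. The spread between samples of a genotype was small against the changes: the SD of these 3 genes ran from 0.059 (Fcgr2b in WT) to 0.20 (Fcrla in WT).

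Other Fc receptor genes, from a fixed list of 9 measured ones, included 1 that fell and none that rose. This gene, Fcrl6, an Fc receptor-like gene known in mice from B cell progenitors, was bright at 12.32, 12.42 and 12.39 in KO, against 12.76, 12.78 and 12.77 in WT. The groups were apart by 0.34 or more, and the change was -0.40 ± 0.050 (SE, 95% interval -0.52 to -0.28, adjusted p = 0.0110), 1.32-fold higher in WT. It lost its call without KO sample 3, WT sample 1 or WT sample 2 (highest adjusted p 0.0651) and with the sample number as a block (adjusted p = 0.0769).

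The mast cell receptor chains Fcer1a and Ms4a2 were at the dim end, between 4.83 and 5.10 on all arrays, and differed by -0.03 and -0.01. Fcgr4, an activating IgG receptor of myeloid cells, lay between 5.80 and 6.04 and differed by -0.01. Fcmr, the IgM receptor of B cells, differed by -0.08, Fcamr, a receptor for IgA and IgM, by -0.10, Pigr, the polymeric immunoglobulin receptor, by -0.07, Fcrls by 0.05 and Trim21, the cytosolic antibody receptor, by 0.07. None of these 8 passed (adjusted p 0.790 to 0.993), and 1 of the 9 genes, Fcrl6, had an unadjusted p under 0.05. The median change of the list was -0.03.

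Along chromosome 1, Fcrlb, Fcrla, Fcgr2b, Fcgr3 and Fcer1g lie in this order in the RefSeq gene table of GRCm38.p6. From Dusp12, the nearest measured gene before Fcrlb, to Adamts4, the nearest after Fcer1g, 14 genes were measured, of which 2 rose, 1 fell and 11 did not pass. The 2 that rose, Fcrla and Fcgr2b, are next to each other among the measured genes. Fcrlb on one side differed by -0.02 and Fcgr4 on the other by -0.01. The gene that fell was Cfap126, which encodes a cilium protein and is the next measured gene after Fcgr3: it gave 7.39, 7.56 and 7.55 in KO, against 8.20, 8.17 and 8.38 in WT (change -0.74 ± 0.081, adjusted p = 0.00638). Of the 11 nearest neighbours of the 9 genes that are not listed genes themselves, Cfap126 fell, Terc, the telomerase RNA gene beyond Fcgr1, rose by 0.55 (adjusted p = 0.0132), and 9 did not pass. Terc lost its call in 4 of the 6 fits that left out 1 sample (highest adjusted p 0.0718) and with the sample number as a block (adjusted p = 0.0661).

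**Figure D3:**
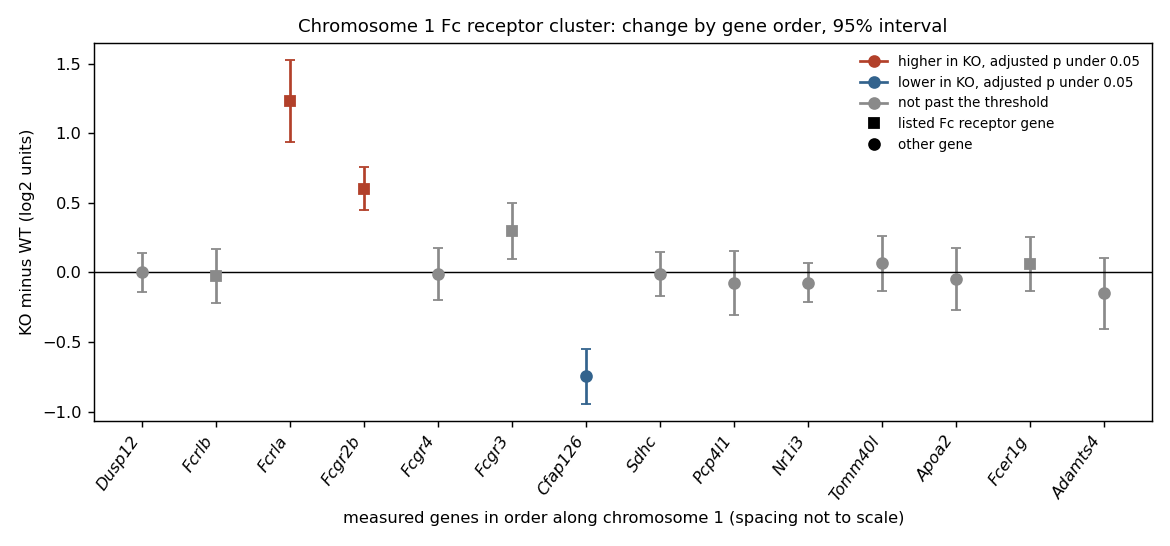
KO minus WT in log2 units with 95% intervals (vertical axis) for the 14 measured genes from Dusp12 to Adamts4, in their order along chromosome 1 and not to scale. Squares are listed Fc receptor genes and circles other genes. Fcrla (1.23) and Fcgr2b (0.60) rise between Fcrlb (-0.02) and Fcgr4 (-0.01), and Cfap126 (-0.74) falls.

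The genes that Fc receptors signal through were read from a fixed list of 27 measured kinases, adaptors and phosphatases. In KO 6 of them rose, 0 fell and 21 missed the threshold, where 2.42% of all genes were called higher and 2.01% lower. The counts of the other lists stand beside the same shares. The KO and WT values did not overlap in 20 of the 27 genes, 10 higher and 10 lower in KO, beside 20.5% of all genes. The median change was 0.03. An unadjusted limma p under 0.05 was found for 17, 8 with a negative change, beside 2681 of all 19938 genes. Blk, a Src-family kinase of B cells, gave 11.40, 11.63 and 11.52 in KO, against 10.42, 10.44 and 10.60 in WT (change 1.03 ± 0.083, adjusted p = 0.00203). Inppl1, encoding the lipid phosphatase SHIP2, gave 11.22, 11.32 and 11.24 in KO, against 10.46, 10.40 and 10.50 in WT (change 0.81 ± 0.056, adjusted p = 0.00121). Plcg1, a phospholipase C, rose by 0.76 ± 0.061 (adjusted p = 0.00200), and Pik3ap1, a B cell adaptor to PI3-kinase, by 0.48 ± 0.074 (adjusted p = 0.0248).

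The other genes that rose, named here after their values were seen, were Syk, the kinase recruited by Fcer1g (0.34, adjusted p = 0.0265), and Ptpn6, encoding the phosphatase SHP-1 (0.29, adjusted p = 0.0437). Inpp5d, encoding the phosphatase SHIP1 that Fcgr2b recruits, was also named after its value was seen. It was bright, at 13.08, 13.17 and 13.10 in KO and 13.04, 13.06 and 13.10 in WT, and its difference of 0.05 had a 95% interval of -0.07 to 0.18 (adjusted p = 0.881). With 1 sample removed at a time, Syk and Ptpn6 lost their call in all 6 fits (highest adjusted p 0.118 and 0.197) and Pik3ap1 in 5 (0.114), and all 3 lost it with the sample number as a block (adjusted p = 0.143, 0.163 and 0.133).

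**Figure D4:**
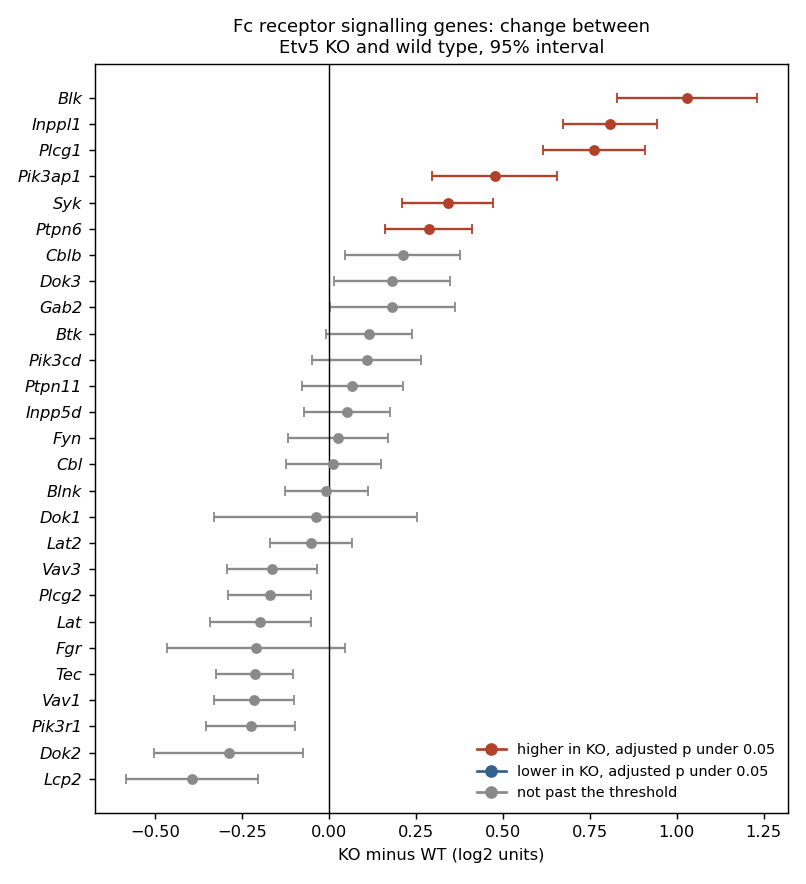
KO minus WT in log2 units with 95% intervals (horizontal axis) for the 27 measured Fc receptor signalling genes, ordered by their change. The 6 genes in red passed the test, from Blk (1.03) to Ptpn6 (0.29), and the 21 in grey, among them Inpp5d (0.05), did not.

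Of 10 genes for chains that pair or work with Fc receptors, only Itgam rose and none fell. B2m, the light chain of the receptor encoded by Fcgrt, was named after its value was seen and differed by 0.05 (95% interval -0.07 to 0.17, adjusted p = 0.893). Hcst, an adaptor chain of natural killer cell receptors, had the next smallest p and differed by -0.37 (adjusted p = 0.142, and 0.0472 over single-gene probe sets only). Among 19 B cell precursor genes, 4 rose and 2 fell, with Enpep, Bst1, Ly6d and Pax5 rising by 4.05, 0.81, 1.96 and 0.43 (adjusted p 3.49e-06 to 0.0127). The 2 that fell, named after their values were seen, were Dntt (-0.37, adjusted p = 0.0132) and Vpreb2 (-0.32, adjusted p = 0.0450). Among 21 mature B cell genes, 3 were higher and 2 lower in KO. The ETS family gene Spib had a change of 0.75 (adjusted p = 0.00255) and the adaptor gene Bank1 one of 0.65 (adjusted p = 0.0125), while Ighm, the IgM heavy chain, and the chemokine receptor gene Cxcr5 had changes of -3.30 and -2.79 (adjusted p = 0.000153 and 0.000511). The -3.30 of Ighm is that of its brightest probe set. Averaged over its 3 probe sets, the change was smaller, -1.15 (adjusted p = 0.000938), so these probe sets did not change alike. Leaving out 1 sample, Pax5 lost its call in 3 of 6 fits (highest adjusted p 0.0751) and Bank1 in 3 (0.0658). Pax5 also lost it with the sample number as a block (adjusted p = 0.0762).

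Markers of other cells that carry Fc receptors were given as lists. None of 13 mast cell and basophil genes passed limma, and only the prostaglandin synthase gene Hpgds, 1 of them, was under an unadjusted p of 0.05 (change 0.44, adjusted p = 0.154, and 0.0488 over single-gene probe sets only). Gata2 had the next smallest p (0.10, adjusted p = 0.766). The summed linear signal of this list was 1200 to 1297 in KO and 1193 to 1250 in WT. Of 19 T and natural killer cell genes, 2 rose, the adhesion receptor gene Cd2 by 1.48 (adjusted p = 0.000190) and the kinase gene Zap70 by 0.33 (adjusted p = 0.0470), and 1 fell, Cd5, with a change of -0.72 (adjusted p = 0.0156). The list had sums of 3090 to 3162 in KO and 2725 to 2849 in WT. Of 11 dendritic cell genes, Flt3 (1.27, adjusted p = 0.00192) and Ly6d, also in the B cell precursor list, rose and 9 did not pass. The median change of the 11 was -0.0010. Sums with Flt3 and Ly6d included were 2527 to 3172 in KO and 1705 to 1769 in WT, and sums without them were not computed. Removing 1 sample at a time ended the call of Zap70 in all 6 fits (highest adjusted p 0.183) and that of Cd5 in 4 (0.0702). Zap70 also lost it with the sample number as a block, median centring or a robust variance trend (adjusted p = 0.173, 0.0718 and 0.0701). The part of these lists in the changes of the Fc receptor genes was not tested.

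The genes whose signal ran most like that of a changed Fc receptor gene were found by Pearson correlation over the 6 arrays, among named genes with an SD of at least 0.5 times that of the member. Since all 6 arrays fall into 2 genotypes, each r mostly reflects the genotype difference and is given as a description. For Fcgr2b the closest were Pax5, a B lineage transcription factor (r = 0.9996), Adgrl1 (0.9991) and Blk (0.9990), among 2248 candidates. For Fcrla, with 473 candidates, they were Smim41 (0.9993), Zkscan16 (0.9988) and Car12 (0.9987), which rose by 0.75, 1.67 and 0.76. For Fcrl1, with 1945 candidates, they were Car3 (0.9982), Xk (0.9972) and Rimkla (0.9968), with changes of -0.52, -0.71 and -0.51. Rimkla lost its call in 4 of the 6 fits that left out 1 sample (highest adjusted p 0.0596).

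The calls of Fcrla, Fcgr2b and Fcrl1 held in each of the 15 alternative fits. Over these fits the change ran from 1.16 to 1.35 for Fcrla, from 0.56 to 0.63 for Fcgr2b and from -0.68 to -0.57 for Fcrl1, with highest adjusted p-values of 0.0295, 0.0427 and 0.0436. Fcgr3 did not pass in any of the 15 (adjusted p 0.0711 to 0.477), nor did Fcgr1, Fcer2a, Fcer1g, Fcrl5 or Fcrlb in any fit that kept their probe set.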

How the data were processed

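Total RNA of 3 Etv5 KO and 3 WT samples was biotin-labelled and hybridised to Affymetrix arrays, as the labels' protocols state. The deposited values are on the log2 scale, read from their range of 2.58 to 14.7. Partek 6.5 and RMA, which corrects background, quantile-normalizes and summarises probes per probe set, are named in the submitters' processing notes. The sources used here give no chip definition, filter or detection call, and the number of arrays limits the precision.

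Titles gave each sample its group. The platform's annotation gave probe sets their gene symbols (21789 with 1 gene symbol, 1621 with several, 12146 unnamed), and the brightest by mean of the 6 arrays stood for a gene. The limma package (version 3.58.1, R version 4.3.3; lmFit, then eBayes, without covariate or filter) was fitted to all 35556 probe sets, with Benjamini-Hochberg adjustment at 0.05 and 6.23 degrees of freedom. A run on simulated, independent probe sets is not reported here, and no result rests on it. Gene, list and alternative choices were made with earlier results of these data known. Named genes were all members and other Fc receptor genes, up to 4 passing genes per list with the smallest p (the 2 with the smallest p where fewer than 2 passed), Etv5, nearest neighbours and the 3 most alike genes of each changed member, leaving out predicted, olfactory and small RNA genes from the last. Genes outside this rule are marked in the text as named after their values were seen. Alternatives were a fixed block for the sample number, leaving out the dimmest 40%, single-gene probe sets, 3 normalizations, a robust variance trend, array weights, each sample left out, other thresholds (0.01 and 0.10) and averaging the probe sets that name one gene. RefSeq gene identifiers matched for all 9 measured members. The labels do not say whether equal sample numbers mark pairs. Deviations of same-numbered KO and WT samples from their group means correlated at -0.12, 0.016 and 0.26. Those of samples with different numbers correlated at -0.35 to 0.31. With 3 samples per group, these values cannot decide whether the numbers mark pairs. Protein sequences were not used here.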

Additional observations from a re-analysis of the deposited data

How the results depend on the processing

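The counts of 2 Fc receptor genes higher and 1 lower in KO were the same under every alternative, and 144 of 149 values of the 9 genes kept their direction and their side of the threshold. With the replicate block (the sample number), which is no known pairing, the count over all probe sets was 544 against 1095, and the distinct genes called in the 9 fixed lists were 16 against 25. At an adjusted p under 0.01 it was 538 probe sets. Leaving out 1 sample gave 565 to 857 probe sets, with 565, 586 and 620 without WT sample 1, KO sample 3 and WT sample 2, and 12 to 20 list genes, with 12, 14 and 15 without those samples. Apart from Etv5, the genes whose value turned sign passed in none of their fits. With array weights Fcrlb was 0.011, Fcrl5 -0.0052, Fcgr4 0.0062 and Ms4a2 0.048. Leaving out 1 sample, Fcrlb ran from -0.088 to 0.027, Fcrl5 from -0.020 to 0.056, Fcrls from -0.071 to 0.14, Fcer1a from -0.093 to 0.0049, Fcgr4 from -0.056 to 0.062 and Ms4a2 from -0.057 to 0.046. The brighter probe set annotated to Etv5 gave 0.28, called in 2 of 15 alternative fits. The mean of both, which went in opposite directions, gave -0.078. The dimmer probe set gave -0.43 and was called in the main fit and in 5 of 14 alternative fits. The cause of these shifts was not tested. The filter on dim probe sets left out Fcrl5, Fcer2a, Fcgr1 and Fcer1g, which then have no value, and the dim signals of these genes limit what their small differences show. An exact permutation test of a single gene cannot go below p = 0.10 here.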
